A study of Rattus norvegicus with 6 samples.

Results

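Red blood cell and haem synthesis genes were read in total lung of wild-type rats and of rats labelled as knockout for the aryl hydrocarbon receptor gene Ahr. The 9 members were chosen by symbol (Hbb, Ahsp, Alas2, Slc4a1, Epb42, Slc25a37, Alas1, Fech and Tfrc), and all 9 were found among the 19828 rows of the deposited table. Each of them passed the filter on low values, which kept 15386 genes. The study had 3 libraries of Sprague-Dawley wild-type (WT) rats and 3 of Sprague-Dawley rats labelled Ahr-KO, 1 library per sample. Both groups carried the Sugen-Hypoxia (SuHx) treatment and were taken at day 56. Sugen blocks VEGF receptors, and with low oxygen it is used to model pulmonary arterial hypertension in rats. No untreated animals entered the comparison, so every value describes lungs after this treatment. Where and how Ahr was edited, how old the animals were and whether blood was flushed from the vessels is not stated in the labels used here.

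Mature red cells have no nucleus, but the youngest of them, the reticulocytes, still hold RNA for haemoglobin and for the proteins of the red cell membrane. Haem, the iron-containing pigment of haemoglobin, is built in a chain of enzymes that starts with an aminolevulinate synthase. Red cell precursors use the Alas2 form of that enzyme, and other tissues use Alas1, which supplies haem to proteins such as the cytochromes P450. In a lung sample the red cell genes are therefore taken to come mostly from blood in the vessels, which was not tested here. Alas1, Fech and Tfrc are used by lung cells too. In bulk tissue, fewer cells of a type and less RNA per cell cannot be told apart.

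The values are normalised read counts, 1 per gene and library, and each group has libraries 0, 1 and 2. Where 3 values are given for a group, they stand in that order. The depth behind them was estimated at 12.9 to 23.6 M reads per library (mega, from the recurring step between values), with the libraries numbered 2 the shallowest of each group. Cyp1a1, the haem-containing P450 that AHR induces, was read at 27085, 23512 and 37694 in WT against 10.5, 0.83 and 1.36 in Ahr-KO. Ahr itself was read at 2939.96, 2860.4 and 3395 in WT against 2399, 3923 and 3575 in Ahr-KO. Its groups overlapped (log2 difference 0.08 ± 0.18 SE, limma adjusted p = 0.81), and since its value may include exons that the edit left in place, it is no check of the labels. Of 12 lung cell markers 11 passed the filter, among them Sftpc and Ager, and Marco was listed at 0 in every library. Log2 differences are Ahr-KO minus WT on the log2(value + 1) scale, ± SE, from limma-trend, and adjusted p is Benjamini-Hochberg adjusted over all tested genes. Separate animals are not stated for the samples, and p-values then reflect only how these libraries vary, which may be technical.

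None of the 9 members passed the threshold of 0.05 in limma. The same fit called 10.8% of all tested genes, 1655 of 15386 (4.5% higher and 6.26% lower in Ahr-KO). At an unadjusted p under 0.05 there were 4 members, Ahsp, Alas2, Slc4a1 and Alas1, and all 4 were lower in Ahr-KO, where 27.9% of tested genes passed that level in either direction and 14.6% were lower. The median log2 difference of the members was -0.85, and that of all tested genes was 0.01. The members fell into a set with larger differences and a steady set. Hbb, Ahsp, Alas2, Slc4a1 and Epb42 had mean log2 differences of -1.56 to -0.85. Their intervals were wide, except that of Ahsp, which was narrower (-1.49 to -0.21). Slc25a37, Fech and Tfrc had differences of -0.13 to 0.15, and Alas1 lay between the sets.

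**Figure D1:**
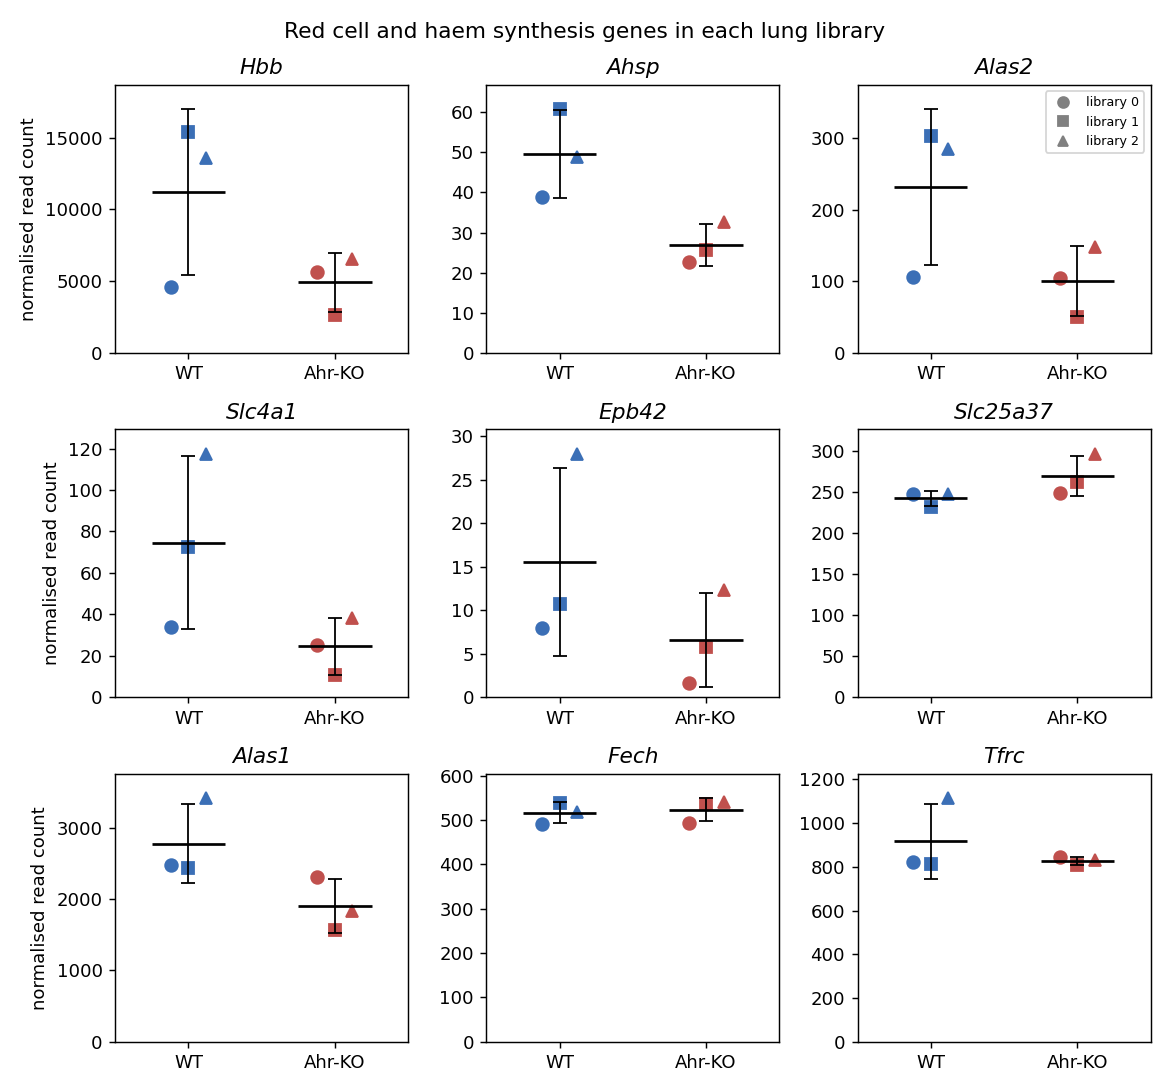
Normalised read count (y axis, from 0) of each member in WT (blue) and Ahr-KO (red) libraries, where the marker shape gives the library number, the bar the mean and the whisker 1 SD (n = 3). For Hbb, WT library 0 at 4598 lies among the Ahr-KO libraries, while Fech runs from 491 to 540.2 over all 6.

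Hbb encodes a beta chain of adult haemoglobin. WT gave 4598, 15424 and 13570.4, and Ahr-KO gave 5623, 2608 and 6542. WT libraries 1 and 2 were high, WT library 0 lay below 2 of the 3 Ahr-KO libraries, and the groups overlapped. The means were 11197.5 ± 5790 in WT and 4925 ± 2058 in Ahr-KO (SD, n = 3). The difference on the log2 scale was -1.11 ± 0.50, with a 95% interval of -2.25 to 0.04 (limma adjusted p = 0.19). Within WT alone the highest value was 3.35 times the lowest, and within Ahr-KO 2.51 times. The WT mean was 2.27 times the Ahr-KO mean. Without WT library 0 the log2 difference was -1.66 and passed the threshold (limma adjusted p = 0.049).

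Most of the other globin rows had the pattern of Hbb. The row that names Hba1 and Hba2 together, the adult alpha chains, was read at 6281, 18694 and 13163 in WT against 4873, 3095 and 8477 in Ahr-KO. Its log2 difference was -1.20 ± 0.45 (limma adjusted p = 0.13). The beta-chain rows LOC689064 and LOC100134871, which RefSeq now lists under the same gene numbers as Hbb-bs and Hbbl1, differed by -1.06 and -1.04 (limma adjusted p = 0.20 and 0.21). In Hbb, LOC689064, LOC100134871, Hba-a1 and the joint alpha row, WT library 1 was the highest of the 6 libraries and Ahr-KO library 1 the lowest. Hbb-b1 did not follow that order, with 162, 995 and 97.9 in WT and 49.2, 174 and 514 in Ahr-KO. Globin genes have near-identical copies, so the split of reads between these rows is uncertain. None of the 7 tested globin rows passed the threshold, where 10.8% of all tested genes did. All 7 differences were negative (median -1.04), against 7537 of 15386 over all tested genes, but that of Hbq1b was only -0.03 ± 0.97. Rows of near-identical copies may share reads, so these signs are not independent. The difference of Hbb-b1 turned to 0.38 without WT library 1 and 0.25 without Ahr-KO library 0. Hba-a1 differed by -0.96 (limma adjusted p = 0.33), and without WT library 0 by -1.66, which passed the threshold (limma adjusted p = 0.047). Without WT library 1 it differed by -0.45. The embryonic and fetal genes Hbe2, Hbg1 and Hbz were listed at 0 in all 6 libraries, and Hbe1 was listed at 0.83 in Ahr-KO library 1 and at 0 elsewhere.

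Summing the 4 beta rows and 2 alpha rows gave a value that does not depend on that split. Those globin rows made up 0.0741%, 0.238% and 0.182% of all values in WT libraries 0, 1 and 2. The same rows made up 0.0679%, 0.0382% and 0.098% in Ahr-KO libraries 0, 1 and 2. WT library 0 lay within the Ahr-KO range. The log2 difference of the sums was -1.13 (exact permutation test, two-sided p = 0.2, where 3 against 3 cannot go below 0.1). The alpha to beta ratio differed by -0.12 on the log2 scale (exact permutation test, two-sided p = 0.6). Hbb made up 62.9% to 70.2% of the beta rows in every library.

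The stretches just before the annotated starts of 4 globin genes whose rows varied together are shown with that of Alas1, the haem enzyme gene of other tissues, which did not follow them. They are RefSeq sequences of build GRCr8 with 120 bases before the start, all from the minus strand and written in the direction of the gene. The authors' build was rn6, and no coordinate was carried between builds. Hbb lies at chr1:167663722-167663841, Hbb-bs at chr1:167631631-167631750, Hbbl1 at chr1:167650236-167650355, Hba-a2 (which carries the older names Hba1 and Hba2) at chr10:15829139-15829258 and Alas1 at chr8:115768643-115768762. Capitals mark every match, on either strand, to 5 short motifs. The KLF motif was searched as CACCC, the letters that Kruppel-like factors read. The NF-Y motif was searched as CCAAT, and the TATA-like box just before a start was searched as ATAAA. The motif of the erythroid factor family around Gata1 was searched as GATAA, and the core read by AHR together with its partner ARNT was searched as GCGTG. Matches of different motifs may overlap.
Hbb: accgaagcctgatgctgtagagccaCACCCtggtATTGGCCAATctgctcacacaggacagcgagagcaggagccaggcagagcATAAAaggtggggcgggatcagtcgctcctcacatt
Hbb-bs: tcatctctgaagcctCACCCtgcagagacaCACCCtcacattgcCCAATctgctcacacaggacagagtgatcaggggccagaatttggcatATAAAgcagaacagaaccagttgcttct
Hbbl1: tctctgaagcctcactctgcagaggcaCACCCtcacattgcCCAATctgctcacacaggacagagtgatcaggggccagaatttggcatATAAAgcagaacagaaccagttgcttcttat
Hba-a2: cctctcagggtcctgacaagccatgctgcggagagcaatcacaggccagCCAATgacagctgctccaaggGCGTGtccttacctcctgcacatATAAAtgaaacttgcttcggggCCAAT
Alas1: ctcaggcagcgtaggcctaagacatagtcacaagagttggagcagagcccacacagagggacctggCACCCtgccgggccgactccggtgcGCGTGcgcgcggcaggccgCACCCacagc

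The 3 beta windows each held the KLF motif, the NF-Y motif and the TATA-like box, in that order towards the start. The Hba-a2 window held the NF-Y motif, the AHR core and the TATA-like box, but not the KLF motif. Alas1 held the KLF motif at 2 places and the AHR core, and neither of the other boxes. The erythroid factor motif was in none of the 5. Among 33469 RefSeq windows of the same length, the KLF motif was in 29.5%, the NF-Y motif in 19.9%, the TATA-like box in 21.5%, the erythroid factor motif in 11.2% and the AHR core in 16.0%. The RefSeq entry of Alas2 starts 4800 bases inside the annotated gene and was not used as a promoter. Fech and Tfrc each held the AHR core, and Epb42 held none of the 5 motifs in the letters searched. For the erythroid factor only GATAA was searched, so other spellings of its motif were not counted. These are matches of letters and say nothing of binding in these lungs.

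Ahsp encodes the chaperone that keeps free alpha chains from precipitating. WT gave 39.0, 60.8 and 49.0, and Ahr-KO gave 22.6, 25.6 and 32.7. All 3 WT values lay above the Ahr-KO values, as did those of 17.4% of tested genes. Its log2 difference was -0.85 ± 0.28, with an interval of -1.49 to -0.21 (limma adjusted p = 0.091). About 24 to 74 reads stood behind each Ahsp value.

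Alas2 encodes the red cell form of aminolevulinate synthase. WT gave 106, 303 and 285, and Ahr-KO gave 104, 49.6 and 147. WT library 0 and Ahr-KO library 0 were alike, and the groups overlapped. Its log2 difference was -1.19 ± 0.50 (limma adjusted p = 0.17).

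Slc4a1 encodes band 3, the anion exchanger of the red cell membrane. WT gave 34.0, 72.3 and 118, and Ahr-KO gave 24.98, 10.7 and 38.2. Here too WT library 0 fell inside the Ahr-KO range. The log2 difference of -1.56 ± 0.56 was the most negative of the 9 members (limma adjusted p = 0.12).

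Epb42 encodes protein 4.2, which ties band 3 to the membrane skeleton. WT gave 7.997, 10.7 and 28.0, and Ahr-KO gave 1.61, 5.79 and 12.3. About 2 to 20 reads stood behind these values, so counting error alone is large. The groups overlapped, with a log2 difference of -1.23 ± 0.69 (limma adjusted p = 0.29).

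**Figure D2:**
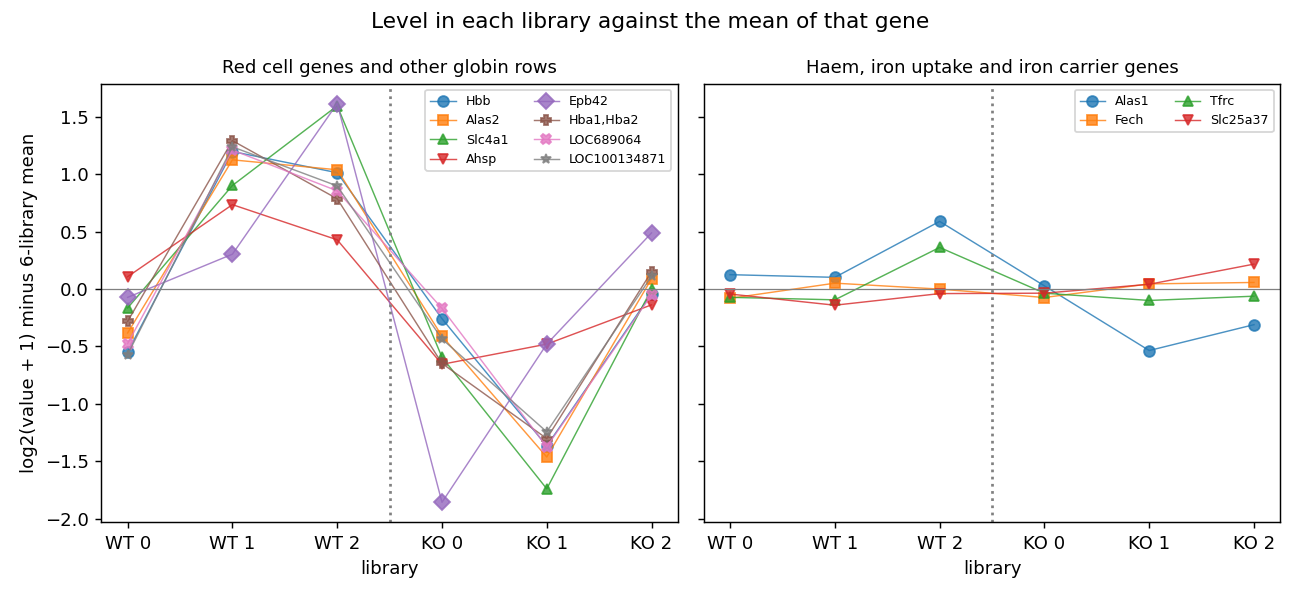
The log2(value + 1) of each gene minus its own mean over the 6 libraries (y axis), by library (x axis; WT left and Ahr-KO right of the dotted line), for red cell genes and globin rows (left) and for Alas1, Fech, Tfrc and Slc25a37 (right). Hbb spans 2.56 and Alas2 2.59 on this scale, and Fech spans 0.14; the lines join libraries only to guide the eye.

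Alas2 and Hbb kept nearly the same proportion in every library. Their log2 ratio ran from -5.74 to -5.43 over all 6 libraries, a range of 0.32, while Hbb by itself spanned 2.56. The ratio differed between genotypes by -0.08 (exact permutation test, two-sided p = 0.5, adjusted p = 0.58 over 7 ratios). The Slc4a1 to Hbb ratio spanned 0.96 and differed by -0.45 (exact permutation test, two-sided p = 0.2, adjusted p = 0.58). Ahsp to Hbb spanned 1.47 and Epb42 to Hbb 2.49, with differences of 0.26 and -0.12 (exact permutation test, two-sided p = 0.5 and 0.9). Both of these turned sign when single libraries were left out, Ahsp to Hbb without Ahr-KO library 1 (-0.12) and Epb42 to Hbb without Ahr-KO library 0 (0.65), WT library 0 (0.08) or WT library 2 (0.15). The ratios were taken on values + 1. On the values themselves the Epb42 to Hbb difference was -0.35. No ratio passed the test, and with 3 against 3 libraries none could.

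**Figure D3:**
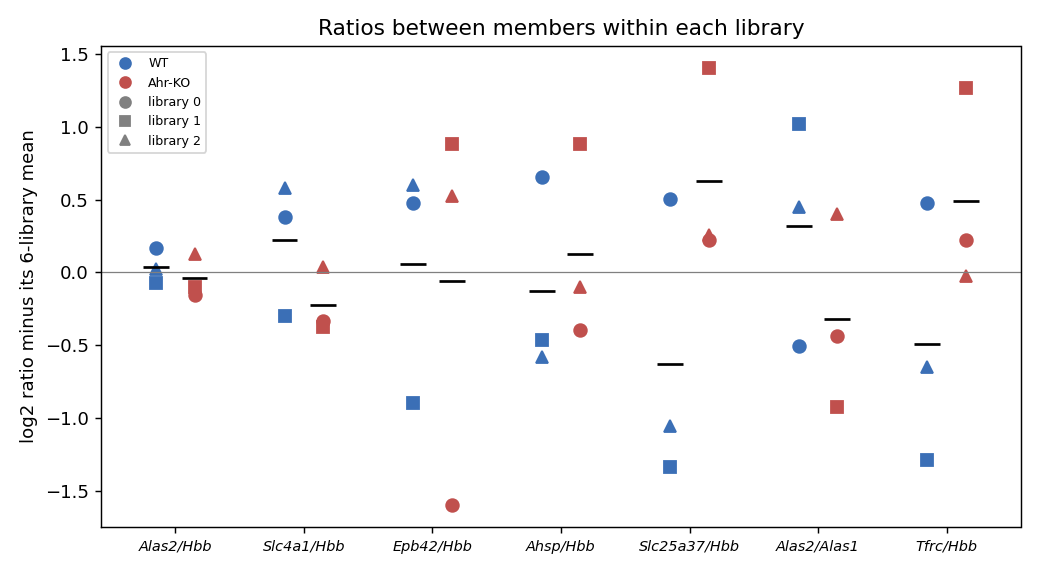
Log2 ratio between members in each library minus the mean of that ratio over the 6 libraries (y axis), WT in blue and Ahr-KO in red, marker shape by library number, short bars for group means. The Alas2 to Hbb points stay within a range of 0.32, and those of Slc25a37 to Hbb spread over 2.75.

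The proportions of Slc25a37 and Tfrc to Hbb varied widely, by 2.75 and 2.56 on the log2 scale over the 6 libraries. The Slc25a37 to Hbb ratio was higher by 1.26 on the log2 scale in Ahr-KO and the Tfrc to Hbb ratio by 0.98, with overlapping groups (exact permutation test, two-sided p = 0.3 for each, adjusted p = 0.58). The Alas2 to Alas1 ratio differed by -0.64 (exact permutation test, two-sided p = 0.4, adjusted p = 0.58).

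Alas1 encodes the aminolevulinate synthase of non-erythroid tissue. WT gave 2472, 2433 and 3410.4, and Ahr-KO gave 2311, 1564 and 1828. All 3 WT values lay above the Ahr-KO values, although the gap between WT library 1 and Ahr-KO library 0 was small. The log2 difference was -0.54 ± 0.18, with an interval of -0.96 to -0.13 (limma adjusted p = 0.092). Without Ahr-KO library 0 it was -0.69 and passed the threshold (limma adjusted p = 0.0498).

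Fech encodes ferrochelatase, which inserts iron into the finished ring. WT gave 491, 538 and 519, and Ahr-KO gave 493, 536 and 540.2. The log2 difference was 0.02 ± 0.10, with an interval of -0.22 to 0.25 (limma adjusted p = 0.93), and its sign turned with equal library totals (-0.07). The values of both groups covered nearly the same range.

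Tfrc encodes the transferrin receptor, by which cells take up iron. WT gave 824, 811 and 1113.5, and Ahr-KO gave 845, 808 and 829. WT library 2 was high and the other 5 lay close together. For Tfrc the log2 difference was -0.13 ± 0.14 (limma adjusted p = 0.57), and 0.02 without WT library 2.

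Slc25a37 encodes mitoferrin-1, the carrier that brings iron into the mitochondria of red cell precursors. WT gave 247, 231 and 248, and Ahr-KO gave 248, 262 and 296. Every Ahr-KO value lay above the WT values by rank, but WT library 2 and Ahr-KO library 0 differed by less than 1 unit of the scale. The log2 difference was 0.15 ± 0.13 (limma adjusted p = 0.51). Together, 3 of the 9 members had groups that did not overlap (Ahsp, Alas1 and Slc25a37), against 34.3% of all tested genes, so that share was near the background.

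**Figure D4:**
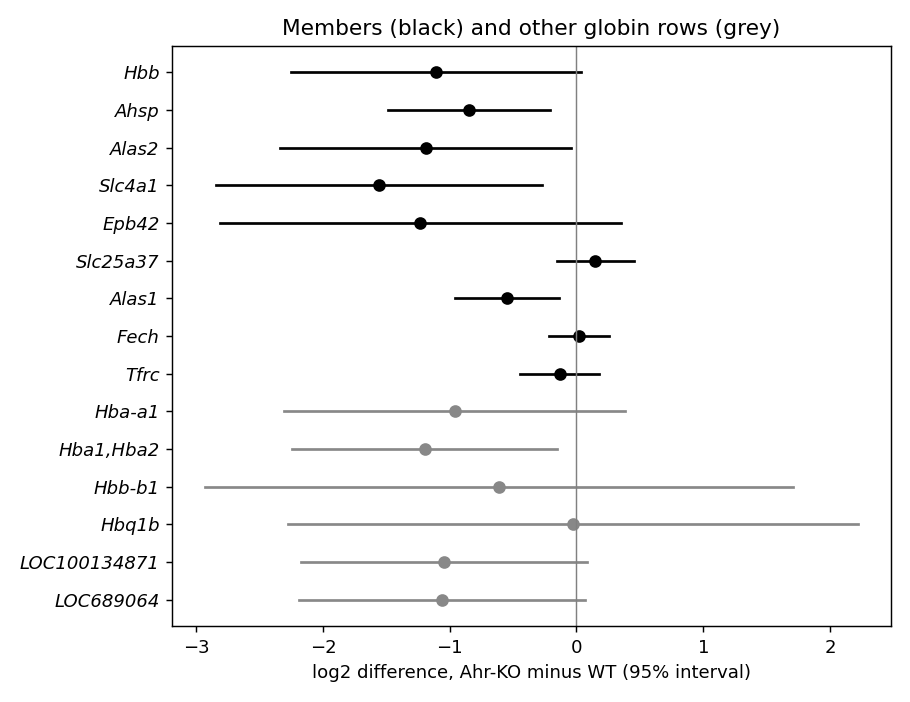
Log2 difference, Ahr-KO minus WT (x axis), with its 95% interval from limma for the 9 members (black) and the other tested globin rows (grey). The intervals of most red cell genes are wide, as for Hbb from -2.25 to 0.04. That of Ahsp is narrower, and that of Fech runs from -0.22 to 0.25.

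No enzyme of the haem pathway passed the test. Of the 9 enzymes from Alas1 and Alas2 to Fech, 0 passed the threshold in limma and 2 had an unadjusted p under 0.05, the 2 synthases. Over all tested genes 10.8% passed the threshold and 27.9% had an unadjusted p under 0.05. These shares are the background for each list in this paragraph. The other 7 had log2 differences of -0.11 (Cpox) to 0.24 (Alad), the enzyme that follows the synthases. The carriers and iron-sulphur assembly genes of the mitochondrion had 0 of 16 members past the threshold in limma and 3 at an unadjusted p under 0.05. Slc25a38, which supplies glycine for haem synthesis, differed by 0.45 ± 0.15, and Slc25a39, a mitochondrial glutathione carrier, by -0.28 ± 0.09 (limma adjusted p = 0.093 and 0.085). With equal library totals Slc25a39 passed the threshold (limma adjusted p = 0.035). Among genes of iron uptake, storage and export, 0 of 16 passed in limma and 2 had an unadjusted p under 0.05, Steap4, a metalloreductase (-0.48), and Cp, the ferroxidase ceruloplasmin (-0.42). Steap4 passed without WT library 0 (limma adjusted p = 0.038) and Cp without Ahr-KO library 0 (0.021).

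Of 16 tested genes of the red cell membrane, Slc4a1 and Epb42 among them, 2 rose, 1 fell and 13 did not pass, where 10.8% of all tested genes passed. Epb41, the skeleton protein 4.1R, rose from 3075, 2616 and 2945 in WT to 4916, 4471 and 5134 in Ahr-KO (log2 0.75 ± 0.10, limma adjusted p = 0.0062). Tmod1, which caps actin filaments, rose by 0.64 ± 0.11 (limma adjusted p = 0.015). Dmtn, the actin-bundling protein dematin, fell by 0.56 on the log2 scale (SE 0.14, limma adjusted p = 0.04). Other cell types use these 3 genes too, and none of the 3 followed the order of libraries seen for Hbb, since all 3 WT values lay on one side of the Ahr-KO values. The call of Dmtn was lost without any single library (highest adjusted p = 0.12), and that of Tmod1 without Ahr-KO library 1 or 2 (highest adjusted p = 0.065). Both were lost with no filter (0.11 and 0.062), and Dmtn also in limma without the trend (0.085).

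Of the regulators of red cell formation, Gata1 and Klf1 were scarcely read, whereas Tal1, Lmo2, Ldb1 and Zfpm1 stood at 894 or more in every library. Gata1, the master factor of red cell precursors, was listed at 1.64 in WT library 1 and at 0 in the other 5 libraries. Klf1, which drives adult globin genes, stood at 11.2 to 17.0 in WT and 10.9 to 21.0 in Ahr-KO (limma adjusted p = 0.74). Of 9 tested factors and the Epo receptor, 0 passed in limma and 3 had an unadjusted p under 0.05, all higher in Ahr-KO, as were 13.4% of tested genes at that level. The 2 with the lowest p were Tal1 (0.39) and Zfpm1 (0.50), which endothelial or other blood cells also use. Tal1 passed without Ahr-KO library 0 (limma adjusted p = 0.038). Among 13 red cell enzymes and reticulocyte genes, 0 passed in limma and 1 had an unadjusted p under 0.05. Over all tested genes these shares were 10.8% and 27.9%. The 1 gene was Prdx2, an abundant red cell peroxidase (-0.22 ± 0.08, limma adjusted p = 0.13). Hemgn, a nuclear protein of red cell precursors, was at 7.997, 12.3 and 21.0 in WT and at 8.87, 1.65 and 5.46 in Ahr-KO (limma adjusted p = 0.18).

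Of 10 genes that clear haem and haemoglobin, 1 rose and 1 fell, where 10.8% of all tested genes passed. Flvcr2, a transporter of the FLVCR family, rose from 1600.4, 1588 and 1539 in WT to 2270, 2654 and 2773 in Ahr-KO (log2 0.70 ± 0.10, limma adjusted p = 0.0079). Slc48a1, which carries haem out of lysosomes, fell from 1361, 1402 and 1588 to 1109, 1092 and 1105 (log2 -0.39 ± 0.09, limma adjusted p = 0.034). The call of Flvcr2 held without each single library. That of Slc48a1 was lost without any 1 library other than WT library 2 (highest adjusted p = 0.11), in limma without the trend (0.080) and with no filter (0.063). Hmox1, the inducible haem oxygenase, was read at 1174, 1167 and 1270.2 in WT against 850.3, 577 and 1076 in Ahr-KO (log2 -0.57 ± 0.20, limma adjusted p = 0.11). Its WT values all lay above its Ahr-KO values, as did those of 17.4% of tested genes.

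**Figure D5:**
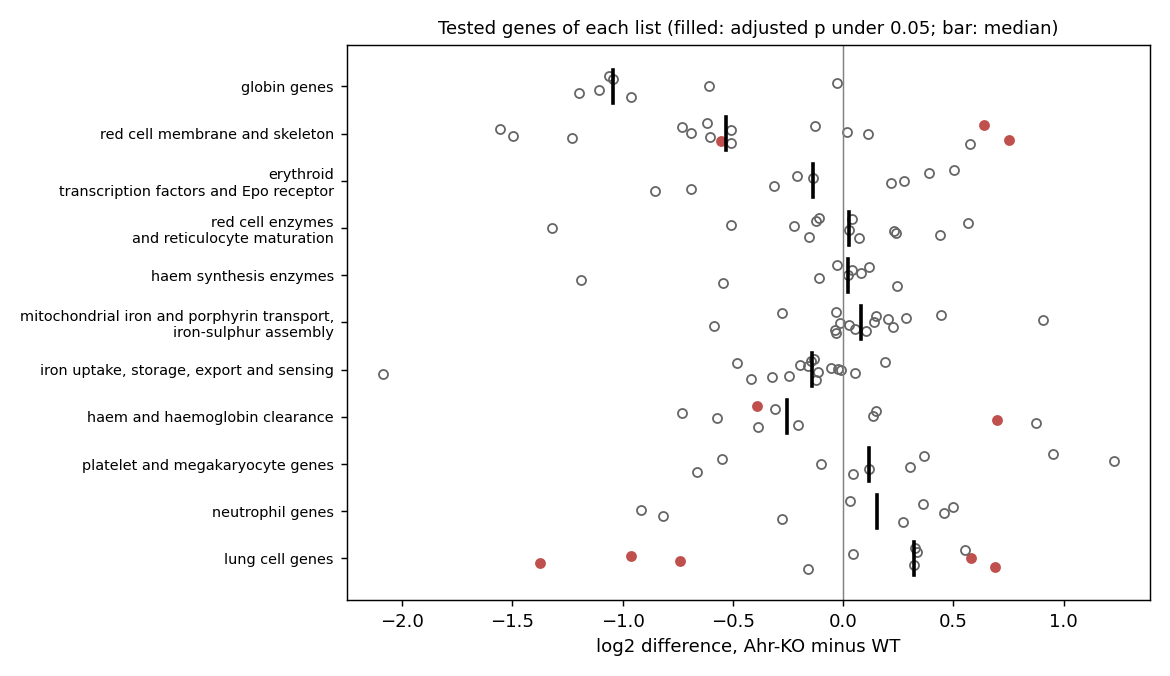
Log2 difference, Ahr-KO minus WT (x axis), of each tested gene by list (y axis), filled where limma's adjusted p was under 0.05, with a bar at the list's median. The globin median is -1.04, the haem enzyme median is 0.02, and the 5 filled points among the red cell membrane and haem clearance lists are Epb41, Tmod1, Dmtn, Flvcr2 and Slc48a1.

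Lists of platelet and neutrophil genes were read as well, and whether their sums measure blood content was not tested. The platelet list summed to 551, 857 and 737 in WT against 695, 639 and 828 in Ahr-KO, so the sums overlapped. Itgb3 and Itga2b were the largest rows of that sum. Pf4 was read at 104, 172 and 122 in WT against 90.3, 79.3 and 95.5 in Ahr-KO (limma adjusted p = 0.16). Its WT values all lay above its Ahr-KO values, as did those of 17.4% of tested genes. The list's differences were positive in 6 genes and negative in 3 (median 0.12). Of the 9 tested platelet genes 0 passed in limma and 4 had an unadjusted p under 0.05, against 10.8% and 27.9% of all tested genes. Gp6, the collagen receptor, differed by -0.66 ± 0.25 (limma adjusted p = 0.13). The neutrophil list summed to 1707, 1004 and 954 in WT and to 1778, 1192 and 735 in Ahr-KO. The libraries numbered 0 were the highest of each group there, whereas WT library 0 had the lowest Hbb of the WT libraries. Of 8 tested neutrophil genes 0 passed in limma and 1 had an unadjusted p under 0.05, against the same 10.8% and 27.9%. That gene was Mmp9, a gelatinase (-0.92 ± 0.26, limma adjusted p = 0.06). Cxcr2, a chemokine receptor, differed by -0.82 ± 0.53 (limma adjusted p = 0.36). These are the 2 with the lowest p, and 5 of the 8 differences were positive (list median 0.15), among them Ngp (0.50), Mmp8 (0.46) and S100a8 (0.36). With equal library totals Mmp9 passed the threshold (limma adjusted p = 0.045).

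Of 11 tested markers of lung cells, 2 rose, 3 fell and 6 did not pass, where 10.8% of all tested genes passed. Their summed value was 744230 to 752959 in WT and 884843 to 941639 in Ahr-KO. Sftpc, Scgb1a1, Sftpa1 and Sftpb were the largest rows of that sum, and none of them passed (limma adjusted p = 0.36, 0.93, 0.25 and 0.054). The totals of all values were also higher in Ahr-KO, with 17805827 to 18009426 in WT and 18884373 to 19341848 in Ahr-KO. Col1a1, a fibroblast collagen, fell by 1.38 on the log2 scale (limma adjusted p = 0.0034). Ptprc, the CD45 gene of leukocytes, fell by 0.96 (limma adjusted p = 0.043), and Foxj1 of ciliated cells fell by 0.74 (limma adjusted p = 0.03). Ager of alveolar type 1 cells rose by 0.69 (limma adjusted p = 0.034) and Pecam1 of endothelial cells by 0.58 (limma adjusted p = 0.044). Calls of Ptprc, Foxj1, Ager and Pecam1 were each lost without at least 3 of the single libraries, in limma without the trend (adjusted p = 0.10, 0.076, 0.058 and 0.10) and with no filter (0.17, 0.11, 0.27 and 0.14). Quantile normalisation also ended those of Ager (0.064) and Pecam1 (0.091), and equal library totals that of Pecam1 (0.069). The part of these cell types in the values of the red cell genes was not tested.

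The 10 genes whose pattern over the 6 libraries was most like the mean of Hbb, Ahsp, Alas2, Slc4a1 and Epb42 were Srpra, Smurf1, Ccl9, Adssl1, Scfd2, Tars, Rrm1, Mmp12, Pofut1 and C4bpa, of 13829 genes compared. Pearson r was 0.97 to 1.00 over 6 libraries, given as a description, since all genes share the same libraries and genotype. No globin row was among the 10, although most globin rows had the pattern of Hbb, which as a member was not compared. In the mean of the 5 genes Epb42, with about 2 to 20 reads, weighed as much as Hbb. Srpra, a subunit of the signal recognition particle receptor, spanned 0.27 on the log2 scale. Ccl9, a chemokine, spanned 2.74, from 106 in Ahr-KO library 1 to 711 in WT library 2. Mmp12, the elastase of macrophages, spanned 3.53, with 30.0, 74.7 and 113 in WT against 8.87, 10.7 and 38.2 in Ahr-KO (limma adjusted p = 0.09).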

How the data were processed

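Bulk RNA-seq of total lung gave 6 libraries, 3 WT and 3 Ahr-KO. The authors deposited 1 table of normalised signal per gene symbol, and per the submitters' processing notes FastQC and build rn6 were used. An aligner, a counter, an annotation and strandedness were not given in the sources used here. In each library 97.5% to 98.0% of the deposited values above 0 were whole multiples of a step, to within 0.05, and the rest were fractions, so no count test was run and the test planned for normalised values was used. At 12.9 to 23.6 M estimated reads, 1 read was worth 0.81 to 1.40. There were 229 rows naming several genes, and 0 columns of values were left unused. Columns count libraries from 0 and titles from 1, so columns were assigned to groups only.

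The filter kept genes that reached 1 in 3 or more libraries. On the log2(value + 1) scale limma 3.58.1 (R 4.3.3) was fitted with genotype and a mean-variance trend, two-sided, at an adjusted p of 0.05. The code was tested on simulated data. Ratios between members were compared by an exact permutation test. The 9 members and 11 gene lists were chosen with earlier results of these data known. Named genes were the members, up to 4 called genes per list or otherwise its 2 with the lowest p, 10 genes of the most similar pattern, and Ahr, Cyp1a1 and Ahrr (Ahrr fell by 8.21 on the log2 scale, limma adjusted p = 9.4e-06). Hmox1, further globin rows, Gata1, Klf1, Cpox, Alad and Pecam1 were named after their values were seen. Some results that this rule would name are not reported here. Alternatives were other scalings, limma settings, filters, a pseudocount of 0.1, limma-voom on the values after division by the step, the library number as a block, and each library left out. RefSeq (GRCr8) matched 9 of 9 members by symbol and gave promoter entries for 6.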

Additional observations from a re-analysis of the deposited data

How the results depend on the processing

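All 9 members stayed short of the threshold under each alternative that kept 6 libraries. Leaving out 1 library gave 0 to 1 members past it, Hbb without WT library 0 and Alas1 without Ahr-KO library 0. Over all alternatives the lowest adjusted p of a red cell member other than Hbb was 0.065 for Ahsp, and the differences of Hbb (-1.66 to -0.70), Ahsp (-1.01 to -0.55), Alas2 (-1.68 to -0.75), Slc4a1 (-2.03 to -1.07), Epb42 (-1.78 to -0.61) and Alas1 (-0.69 to -0.39) stayed negative. With equal library totals, Fech turned to -0.072 (-0.073 without the globin rows) and Ahr to -0.012 (-0.014 without them), and with quantile normalisation Ahr stood at -0.012. With 1 library left out, Fech ran from -0.016 to 0.061, Tfrc from -0.21 to 0.017 Ahr from -0.061 to 0.29 and Hbb-b1 from -1.43 to 0.38. The ratios ran from -0.60 to 0.65 for Epb42 to Hbb, -0.12 to 0.65 for Ahsp to Hbb and -0.16 to -0.02 for Alas2 to Hbb.

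Over all genes, 1655 calls (692 higher, 963 lower) became 952 in limma without the trend and 451 with no filter, and with 1 library left out they ran from 407 to 1834. Equal library totals gave 448 higher and 1314 lower. With the library number as a replicate block there were 899 calls and 0 members past the threshold, and Slc48a1, Ptprc and Pecam1 lost their calls (limma adjusted p = 0.085, 0.066 and 0.091), while Mmp12 passed the threshold (0.034). Deviations from the group means correlated by -0.15, 0.05 and -0.08 between same-numbered libraries over 13069 genes. With 3 libraries per group these correlations cannot decide whether the numbers pair samples. The ratio differences with the block equal those without it by arithmetic (-0.08 for Alas2 to Hbb), so they are no check. The cause of the shifts in calls was not tested. The planned count tests on whole reads were not run, because not all values are whole multiples of the step. Depth limits Epb42, with 2 reads in Ahr-KO library 0.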
